A study of Mus musculus with 6 samples.

Results

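Skeletal muscle RNA from 2 Control libraries held high levels of 34 genes known from the pancreatic acinar cell, most of them for secreted enzymes. The libraries of both mutant genotypes held far lower levels of the same genes, with few or no reads for most of them. The 34 genes were chosen from earlier results of these data as exocrine transcripts high in both Control libraries, and all 34 were found among the 53342 genes of the deposited table. Their high level in Control is therefore how they were chosen and is described here without a test. The level in every library, the ratio between the 2 Control libraries, the order of the genes within a library and the LTKOFstL/L to LDKO difference are given for them below.

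Acinar cells make up most of the exocrine pancreas. They package digestive enzymes, many as inactive zymogens, into granules and release them into the pancreatic duct when stimulated by cholecystokinin or acetylcholine. Their enzyme genes give the most abundant transcripts of the pancreas and are driven by a factor complex around Ptf1a and Rbpjl together with Nr5a2 and Bhlha15 (Mist1). Skeletal muscle is not a known site of this secretory programme.

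The study sequenced skeletal muscle of male mice in 6 libraries, 2 for each of 3 genotypes. LTKOFstL/L mice carry floxed Irs1, Irs2 and Fst, with loxP sites around Fst exons 2 to 5, and albumin-driven Cre. LDKO mice (Irs1L/L:Irs2L/L:CreAlb) carry the floxed insulin receptor substrate genes Irs1 and Irs2 with the same Cre, and Control mice are named for loxP in the sample descriptions. The albumin promoter is active in hepatocytes, so the deletions lie in the liver and not in the muscle that was sequenced. The sample labels name a high fat diet for all 6 libraries, the series text names chow from 5 to 16 weeks, and the diet is not settled by these sources. Nothing states that the 2 libraries of a group came from separate animals, so the spread between them may be technical.

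The deposited values are log2 expression centred on the median of the 6 libraries for each gene, and scaled values under 1 had been raised to 1, called the floor here. Where libraries tie at that floor, or where a low value matches 1 or 2 whole reads, the level before centring could be recovered, which was so for 30 of the 34 genes. A recovered log2 level of 0 means that the library is at the floor. The scaled value of 1 read was 2.12 and 2.11 in LTKOFstL/L, 1.81 and 1.76 in LDKO, and 2.12 and 2.03 in Control, and dividing by it gives read equivalents. Total depth is unknown, and the number of genes above the floor ran from 23869 to 24562 per library. The labelled tissue was checked against 20 skeletal muscle markers. All 20 were detected, and their median centred log2 value lay between −0.07 and 0.13 in each library. Creatine kinase, Ckm, stood at −0.01 and 0.13 in LTKOFstL/L, 0.14 and −0.22 in LDKO, and 0.01 and −0.09 in Control.

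Promoter sequences from RefSeq (GRCm38.p6), 250 bases before to 50 after the gene start, were matched by symbol for 26 of the 34 genes. The genes Clps, Ctrc, Try5, Try10, Zg16, Dmbt1, Tff2 and Erp27 were not matched. The letters CACCTG, an E-box of the kind bound by Ptf1a and other basic helix-loop-helix factors, were searched on both strands, as were TATAAA, the TATA box, and TGGGAA, a core of sites bound by the Rbpj family. CACCTG was in 17 of the 26 promoters (65.4%), and in 20.2% of all 32851 promoters of the same length. TATAAA was in 11 of the 26 (42.3%) and in 13.6% of all promoters, and TGGGAA was in 17 of the 26 (65.4%) and in 25.6% of all. These are letter matches, not measured sites. Some of the 26 promoters belong to closely related genes and are not independent, such as Cela3a and Cela3b, which have long, nearly identical stretches with CACCTG in them.

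The promoters of Prss2, Cela3b, Cel and Amy2a5 are shown because they range from 4 copies of CACCTG to none among genes that behaved alike in the libraries. They are written 5′ to 3′ on the gene's strand, with CACCTG and TATAAA on either strand in capitals. The pancreatic trypsinogen Prss2 (chr6:41521526-41521825, plus strand) holds CACCTG from position −169 and TATAAA from −16, counted from the gene start. The elastase Cela3b (chr4:137430471-137430770, minus strand) holds CACCTG from −83 and from −46. The bile salt-stimulated lipase Cel (chr2:28563354-28563653, minus strand) holds 4 copies, from −170, −154, −134 and −65. The amylase Amy2a5 (chr3:113258650-113258949, minus strand) holds TATAAA from −30 and no CACCTG in this window.
Prss2: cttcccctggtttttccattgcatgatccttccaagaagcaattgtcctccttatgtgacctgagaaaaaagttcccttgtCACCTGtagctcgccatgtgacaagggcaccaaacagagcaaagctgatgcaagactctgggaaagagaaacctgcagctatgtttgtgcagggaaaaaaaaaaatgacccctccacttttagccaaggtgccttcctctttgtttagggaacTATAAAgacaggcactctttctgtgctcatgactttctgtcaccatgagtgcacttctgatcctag
Cela3b: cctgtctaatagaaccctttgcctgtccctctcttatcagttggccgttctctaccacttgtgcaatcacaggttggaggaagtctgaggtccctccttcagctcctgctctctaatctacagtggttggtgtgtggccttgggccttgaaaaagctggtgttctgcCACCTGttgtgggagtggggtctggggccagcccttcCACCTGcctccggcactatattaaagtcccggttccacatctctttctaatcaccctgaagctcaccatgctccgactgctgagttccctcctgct
Cel: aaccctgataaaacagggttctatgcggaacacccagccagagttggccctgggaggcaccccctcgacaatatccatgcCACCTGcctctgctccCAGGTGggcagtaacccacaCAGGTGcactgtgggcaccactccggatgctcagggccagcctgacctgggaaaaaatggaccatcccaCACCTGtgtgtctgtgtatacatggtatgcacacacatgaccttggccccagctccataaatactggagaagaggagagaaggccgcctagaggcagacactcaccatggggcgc
Amy2a5: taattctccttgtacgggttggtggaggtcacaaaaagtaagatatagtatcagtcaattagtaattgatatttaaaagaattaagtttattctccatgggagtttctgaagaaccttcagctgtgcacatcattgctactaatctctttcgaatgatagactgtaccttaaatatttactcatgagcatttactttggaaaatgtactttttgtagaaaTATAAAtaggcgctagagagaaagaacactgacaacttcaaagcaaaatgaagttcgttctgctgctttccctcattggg

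The starch and lipid enzymes numbered 8. Pnlip, the main pancreatic triglyceride lipase (ENSMUSG00000046008, GRCm38 chromosome 19, 58652498 to 58681788), had recovered log2 levels of 0 and 0 in LTKOFstL/L, 4.99 and 1.82 in LDKO, and 15.93 and 12.06 in Control. Clps, the colipase that anchors this lipase to fat droplets (ENSMUSG00000024225, chromosome 17, 28558149 to 28560766), had log2 levels of 0 and 0 in LTKOFstL/L, 4.50 and 0 in LDKO, and 15.36 and 11.02 in Control. For both genes the groups did not overlap between Control and either mutant, Control 1 was far above Control 2, and LDKO 1 was above LDKO 2. Cel, which hydrolyses cholesteryl esters and other lipids, had log2 levels of 0 and 1.07 in LTKOFstL/L, 2.86 and 0 in LDKO, and 15.01 and 11.14 in Control. The level of Amy2a5, which digests starch, could not be recovered, and its centred log2 values were −2.42 and −3.75 in LTKOFstL/L, 1.50 and −1.50 in LDKO, and 12.50 and 8.59 in Control. The lipase relatives Pnliprp1 and Pnliprp2, the phospholipase Pla2g1b and Amy2b, an amylase-family locus annotated as an unprocessed pseudogene, were at the floor in both LTKOFstL/L libraries. Among these 4, LDKO 1 ranged from a log2 level of 0.12 for Amy2b to 4.18 for Pnliprp1, Control 1 from 11.31 to 14.45 and Control 2 from 7.29 to 10.46.

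Proteases and carboxypeptidases were the largest group, with 16 genes. Ctrb1, chymotrypsinogen B (ENSMUSG00000031957, chromosome 8, 111686519 to 111691010), had the highest recovered level of all, with log2 levels of 0 and 0 in LTKOFstL/L, 6.33 and 3.14 in LDKO, and 17.33 and 13.19 in Control. Cela2a, an elastase (ENSMUSG00000058579, chromosome 4, 141814962 to 141826160), had log2 levels of 0 and 0 in LTKOFstL/L, 4.72 and 2.96 in LDKO, and 16.40 and 12.32 in Control. In both genes the 3 genotypes did not overlap, with LTKOFstL/L lowest and Control highest. The mean centred log2 value of Ctrb1 was −4.74 ± 0 in LTKOFstL/L, 0 ± 2.26 in LDKO and 10.52 ± 2.93 in Control (SD, n = 2 each). Prss2, a trypsinogen that becomes trypsin in the gut, had log2 levels of 0 and 0 in LTKOFstL/L, 3.77 and 0 in LDKO, and 15.57 and 11.67 in Control. Cpa1, a carboxypeptidase that trims aliphatic and aromatic residues from peptide ends, had log2 levels of 1.08 and 0 in LTKOFstL/L, 4.67 and 1.82 in LDKO, and 15.74 and 11.70 in Control. Cpb1, its counterpart for basic residues, had log2 levels of 0 and 0 in LTKOFstL/L, 3.44 and 0 in LDKO, and 14.68 and 11.06 in Control. The order of libraries in these genes was the one seen for the lipases.

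Cela3b, another elastase-family protease, had log2 levels of 1.08 and 0 in LTKOFstL/L, 3.67 and 0.82 in LDKO, and 15.34 and 11.14 in Control. Ctrc, chymotrypsin C, which in human pancreas regulates trypsinogen activation, had log2 levels of 0 and 0 in LTKOFstL/L, 3.27 and 2.20 in LDKO, and 14.96 and 10.79 in Control. The annotations of Ctrc and Cela2a, both on the minus strand, overlap and have the same 3′ boundary, so reads may be shared between them. The trypsin gene Try4 had log2 levels of 0 and 0 in LTKOFstL/L, 4.32 and 2.82 in LDKO, and 15.46 and 11.34 in Control. Its neighbour Try5 had 0 and 0 in LTKOFstL/L, 4.03 and 0.82 in LDKO, and 15.29 and 11.13 in Control. Try4 and Try5 share much of their exonic sequence, so reads may be divided between them. The gene 2210010C04Rik, in the same chromosome 6 cluster, had log2 levels of 1.08 and 0 in LTKOFstL/L, 4.86 and 2.82 in LDKO, and 15.72 and 11.78 in Control. Lower members of the group were Prss3, Try10 and Cela3a, with log2 levels of 0 in all 4 mutant libraries, 8.88 to 9.88 in Control 1 and 5.20 to 5.69 in Control 2. Gm2663 had log2 levels of 0 and 0 in LTKOFstL/L, 0 and 1.82 in LDKO, and 8.45 and 4.36 in Control, and it came closest to overlap, with Control 2 above the highest mutant library by 2.54. The levels of Cela1 and Ctrl could not be recovered. Cela1, an elastase, had centred log2 values of −1.79 and −0.53 in LTKOFstL/L, 0.13 and −0.13 in LDKO, and 10.50 and 6.45 in Control. Ctrl, a chymotrypsin-like protease, had centred log2 values of −1.10 and −0.39 in LTKOFstL/L, 0.39 and −3.64 in LDKO, and 11.05 and 6.98 in Control.

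The other secreted products numbered 7. Rnase1, pancreatic ribonuclease (ENSMUSG00000035896, chromosome 14, 51144998 to 51146785), had log2 levels of 0 and 1.07 in LTKOFstL/L, 2.44 and 0 in LDKO, and 14.58 and 10.53 in Control. Sycn, syncollin of the zymogen granule membrane (ENSMUSG00000084174, chromosome 7, 28540885 to 28542209), had log2 levels of 0 and 0 in LTKOFstL/L, 3.18 and 0 in LDKO, and 14.35 and 10.14 in Control. Zg16, a lectin of the zymogen granule, had log2 levels of 0.08 and 0 in LTKOFstL/L, 2.44 and 0.82 in LDKO, and 14.27 and 10.22 in Control. In each of these, LDKO 1 held the most reads outside Control. Klk1, tissue kallikrein, did not follow this order, with log2 levels of 1.08 and 1.07 in LTKOFstL/L, 0 and 1.82 in LDKO, and 12.78 and 8.76 in Control. Dmbt1, a secreted scavenger-receptor glycoprotein, had log2 levels of 0 and 0 in LTKOFstL/L, 1.86 and 0 in LDKO, and 12.59 and 8.52 in Control. The trefoil peptide gene Tff2 had log2 levels of 0 in all 4 mutant libraries, and 10.65 and 6.89 in Control. Reg1 did not follow it either. The level of Reg1, which encodes the secreted protein lithostathine, could not be recovered, and its centred log2 values were −0.63 and −0.30 in LTKOFstL/L, −0.53 and 0.30 in LDKO, and 10.94 and 7.35 in Control.

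Folding and membrane proteins formed the lowest group, with 3 genes. Pdia2, the pancreatic protein disulfide isomerase (ENSMUSG00000024184, chromosome 17, 26195999 to 26199087), had log2 levels of 1.08 and 0 in LTKOFstL/L, 1.09 and 1.39 in LDKO, and 10.33 and 6.34 in Control. Erp27, an endoplasmic reticulum protein of the same fold family (ENSMUSG00000030219, chromosome 6, 136907311 to 136922180), had log2 levels of 0 and 0 in LTKOFstL/L, 0.86 and 0 in LDKO, and 8.39 and 4.34 in Control. Aqp12, an acinar aquaporin (ENSMUSG00000045091, chromosome 1, 93006334 to 93012269), had log2 levels of 0 in all 4 mutant libraries, and 7.32 and 4.14 in Control. Aqp12 had 8.71 read equivalents in Control 2, the fewest of the 30 genes with recovered levels. Per kilobase of exon, the scaled value in Control 1 ran from 113 for Erp27 and 147 for Aqp12 to 187268 for Ctrb1, with Clps next at 68968.

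**Figure D1:**
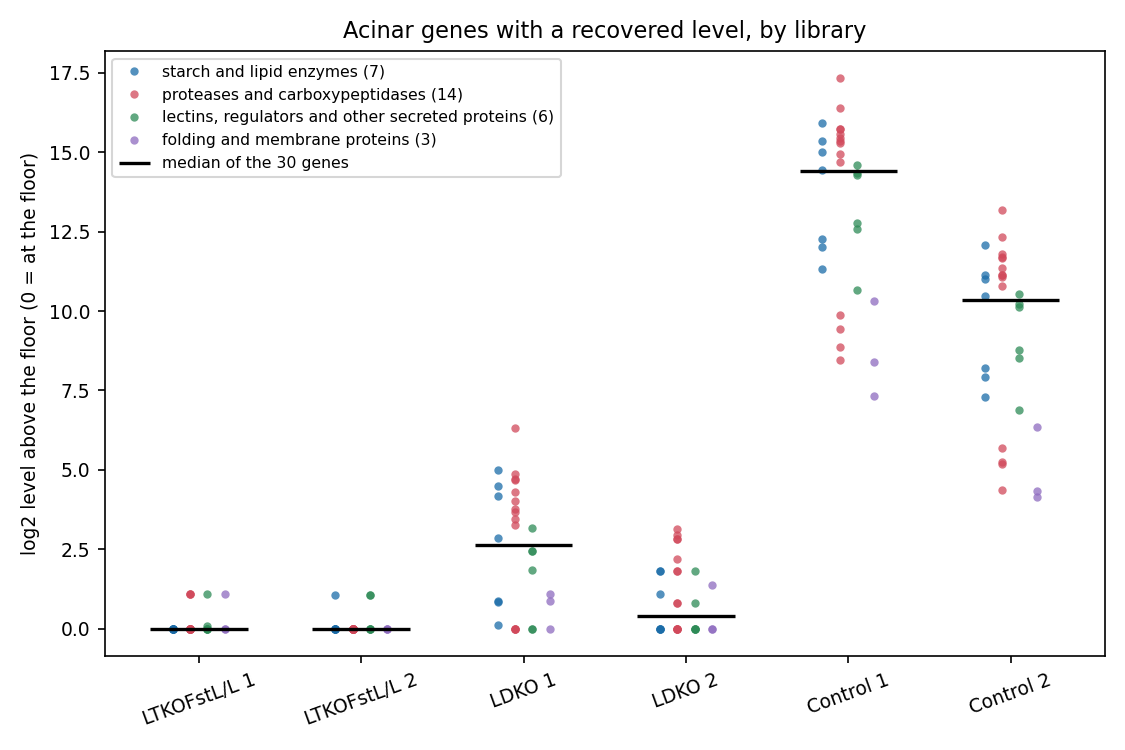
Recovered log2 level (y axis, 0 is the floor) of the 30 genes in each library (x axis), each gene a point coloured by role, with a bar at the median of each library. The medians are 0 and 0 in LTKOFstL/L, 2.65 and 0.41 in LDKO, and 14.40 and 10.34 in Control, and every gene is above the floor in both Control libraries.

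Over the 30 genes with a recovered level, 6 and 3 were above the floor in LTKOFstL/L 1 and 2, 23 and 15 in LDKO 1 and 2, and 30 in each Control library. Amy2a5, Cela1, Ctrl and Reg1, without a recovered level, are not in these counts or in the sums below. The summed read equivalents were 5.5 and 3.0 in LTKOFstL/L, 196.5 and 35.7 in LDKO, and 400656 and 25285 in Control. The plot of levels by library shows the 2 Control libraries apart from each other as well as from the mutants. The summed scaled values were 11.6 and 6.3 in LTKOFstL/L, 356.3 and 63.0 in LDKO, and 848629 and 51255.5 in Control. On these scaled sums LDKO 1 was at 0.042% of Control 1 and lay 144-fold below Control 2. Both Control libraries were above all 4 others for 34 of 34 genes, as their choice required, and for 6.69% of the 17227 genes tested. In bulk tissue, fewer cells of a type and less RNA per cell cannot be told apart.

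Because the genes were picked on this contrast, their distance from Control is given as a description. In LTKOFstL/L minus Control the median log2 difference was −12.11 (range −15.26 to −5.73), against 0.00 over all genes tested. Both LTKOFstL/L libraries were at the floor for 22 of the 34, and with these at the bound that 3 reads in a library allow the median was −9.78. On that bound Ctrb1 was at least 6187-fold lower in LTKOFstL/L than the mean of both Control libraries, and at least 1475-fold lower than Control 2 alone. Aqp12 was at least 8.38-fold lower than that mean, and at least 2.79-fold lower than Control 2 alone. In LDKO minus Control the median was −9.88 (range −11.74 for Prss2 to −5.49 for Gm2663), and it was the same with the 5 genes at the floor in both LDKO libraries set to their bound. Those 5 were Cela3a, Prss3, Try10, Tff2 and Aqp12. Without Control 1 the median was −10.06 for LTKOFstL/L and −7.90 for LDKO, and without Control 2 it was −14.14 for LTKOFstL/L and −11.88 for LDKO. Without LDKO 1 the LDKO median was −10.65, and without LDKO 2 it was −9.05. The authors' deposited table of LTKOFstL/L against Control lists all 34 genes as lower, with 2.15% of the 53342 genes listed as lower. The authors' deposited table of LDKO against Control also lists all 34 as lower, with 1.42% of all genes so listed.

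The 2 Control libraries differed from each other by a nearly fixed factor. Control 1 was above Control 2 for all 34 genes, with a median log2 difference of 4.05, a median ratio of 16.5. The difference ran from 3.18 for Aqp12 (9.04-fold) to 4.35 for Clps (20.3-fold), with an SD of 0.22 over the 34 genes. Over the 17227 genes tested, the median difference between these libraries was 0.01 with an SD of 0.66. Of the 34 genes, 28 lay within 0.25 of their own median, a band that held 36 of all genes tested, these 28 included. The median was 4.0 for starch and lipid enzymes, 4.09 for proteases and carboxypeptidases, 4.05 for other secreted products and 3.99 for folding and membrane proteins. Each gene has 1 value per library here, so these figures carry no replicate check.

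**Figure D2:**
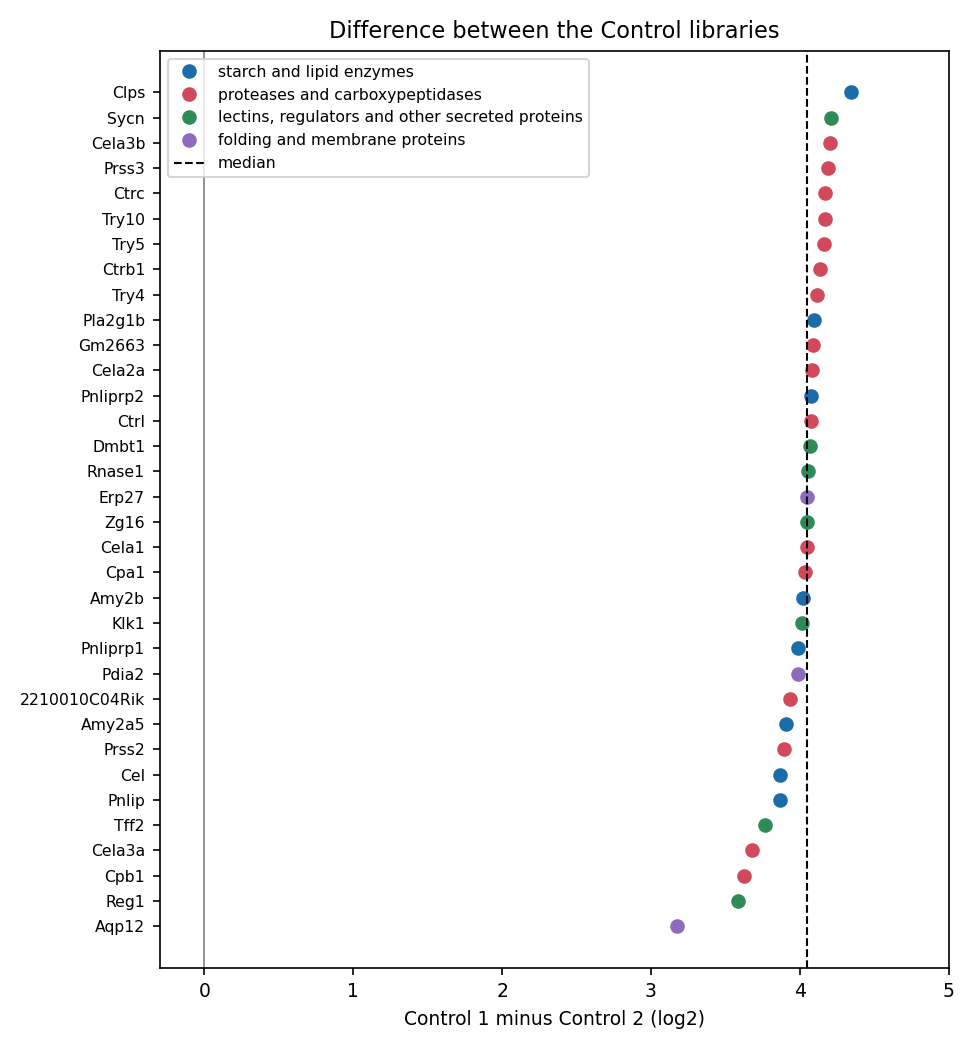
Control 1 minus Control 2 log2 difference (x axis) for each of the 34 genes (rows, sorted by the difference and coloured by role), with a dashed line at the median. All 34 points lie between 3.18 and 4.35 around the median of 4.05.

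The plot of Control differences shows Aqp12 apart from the other genes. Among 9 genes with under 100 read equivalents in Control 2, the difference ran from 3.18 to 4.19 with an SD of 0.32, and of 0.18 without Aqp12. Among 21 genes with 100 or more it ran from 3.62 for Cpb1 to 4.35 for Clps, with an SD of 0.15, and the 12 with 1000 or more covered the same range with an SD of 0.19. Some well-read genes still departed from the median. Cpb1 had 1052 read equivalents in Control 2 and a difference of 3.62, and Clps had 1022 and a difference of 4.35. Leaving out the amylase genes, Cela3a, Cela3b and the trypsin cluster of chromosome 6 left 23 genes with a median of 4.05. Klk1, Ctrc, Cela2a and Reg1, which share some exonic sequence with other genes, stayed among the 23.

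Within a library the genes kept nearly the same proportions. Ctrb1 made up 19.4% of the summed level in Control 1 and 18.2% in Control 2, and Cela2a made up 10.2% and 9.98%. Pnlip made up 7.36% in Control 1 and 8.36% in Control 2. The largest shifts were 1.14 percentage points for Ctrb1 and −1.06 for Cpb1 (Control 1 minus Control 2). Across the 30 genes the log2 levels of Control 1 and Control 2 had a Pearson r of 0.997 and a Spearman rho of 0.992. These points share gene length and base composition, and genes are not independent replicates.

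LDKO 1 carried the same genes at a much lower level. Of its read equivalents on these genes, 22.6% were Ctrb1, 8.91% Pnlip and 7.37% Cela2a. For the 14 genes with at least 5 read equivalents in LDKO 1, LDKO 1 minus Control 1 had a median of −11.15, with a range of −11.80 for Prss2 to −10.27 for Pnliprp1 and an SD of 0.42. These 14 were picked by their LDKO 1 level, which narrows the spread, and over the 23 genes above the floor in LDKO 1 the range was −12.15 to −7.53 with an SD of 0.99. The same 14 genes lay at a median of −7.06 relative to Control 2. The plot of levels against Control 1 shows this for single genes, and the log2 level in LDKO 1 followed that in Control 1 with a Pearson r of 0.894 and a Spearman rho of 0.930 over the 23 genes above the floor, and with 0.867 and 0.859 over the 14. LDKO 1 was the highest of the 4 mutant libraries for 24 of 34 genes, and for 30.2% of all genes tested.

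**Figure D3:**
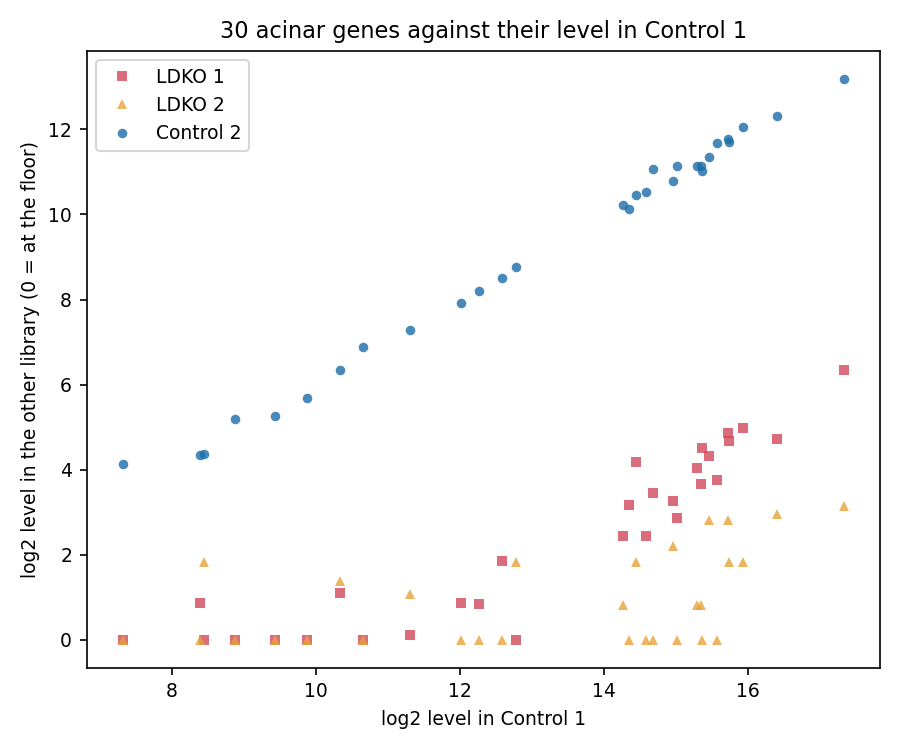
Recovered log2 level of 30 genes in LDKO 1, LDKO 2 and Control 2 (y axis, 0 is the floor) against the level in Control 1 (x axis), each point a gene in a library. LDKO 1 points lie at 0 to 6.33 and climb with the Control 1 level at the upper end, and Control 2 points form a line from 4.14 to 13.19.

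Sharing of sequence with other genes was measured as the percent of a gene's exonic 50-base words found in another gene. For 20 of the 34 genes it was 0. It was over 50% for 4, namely Gm2663 at 83.5% (most with 1810009J06Rik), Prss3 at 66.1% (with Gm10334), Try4 at 65.6% (45.9% with Try5) and Amy2a5 at 53.5% (with Amy2a2), so how reads were divided among these genes is uncertain. By chromosome, 10 of the 34 genes lie on chromosome 6, where Gm2663, 2210010C04Rik, Try4, Try5, Try10, Prss3 and Prss2 stand between 40995830 and 41525079.

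The choice of genes did not use the difference between LTKOFstL/L and LDKO, and this contrast was fitted across all genes. The 30 genes with a recovered level entered that fit only through their Control libraries and hold few or no reads in the groups compared. Amy2a5 was estimated at a log2 level of at least 4 in every library, and the levels of Cela1, Ctrl and Reg1 are uncertain. The p-values of all 34 genes are given as values and support nothing. As the plot of this difference shows, mean levels were lower in LTKOFstL/L than in LDKO for 27 of the 34 genes, higher for Ctrl and Klk1, and equal for 5. The median log2 difference was −1.04 (range −4.74 to 0.88), against 0.00 over all genes tested. Ctrb1 had the largest difference, at −4.74 ± 1.32 (SE, n = 2 libraries per group), with an adjusted p of 0.0882 in limma. Cela2a stood at −3.84 ± 1.16 (limma adjusted p = 0.110), Try4 at −3.57 ± 1.15 (0.129) and Pnlip at −3.40 ± 1.26 (0.180). By limma with Benjamini-Hochberg adjustment over all genes, 0 of the 34 passed 0.05 and 2.58% of the 17227 genes tested did. At an unadjusted p under 0.05 there were 7 members, all lower in LTKOFstL/L (2210010C04Rik, Cela2a, Ctrb1, Ctrc, Pnlip, Pnliprp1 and Try4). Of all genes tested, 9.37% had such a p and were lower in LTKOFstL/L, and 18.8% had one in either direction. All but Amy2a5 lie in the lowest level stratum, where the spread is largely pooled over genes. The difference between the 2 Control libraries also enters each gene's spread in this fit, and so its p-value. With only the groups compared, Ctrb1 had an SE of 1.01 (limma adjusted p = 0.0668), and 0 of the 34 passed there too.

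Much of this difference rests on LDKO 1. Both LDKO libraries were above both LTKOFstL/L libraries for 14 of the 34 genes, and for 24.3% of all genes tested. Without LDKO 1 the median difference was −0.51, and 0 members had an unadjusted p under 0.05. Without LDKO 2 it was −2.11, and 12 did. The authors' deposited table of LTKOFstL/L against LDKO lists 16 of the 34 as lower and 0 as higher, with 2.32% of all genes listed as lower and 2.22% as higher. Those 16, with authors' corrected p-values between 0 and 0.0102 in the deposited table, include Ctrb1, Cela2a, Pnlip, Clps, Cpa1, Prss2, Sycn and Amy2a5. Clps, Prss2 and Sycn were at the floor in LDKO 2 and in both LTKOFstL/L libraries, so their listing rests on LDKO 1. Why the authors' test listed 16 and limma 0 was not tested.

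**Figure D4:**
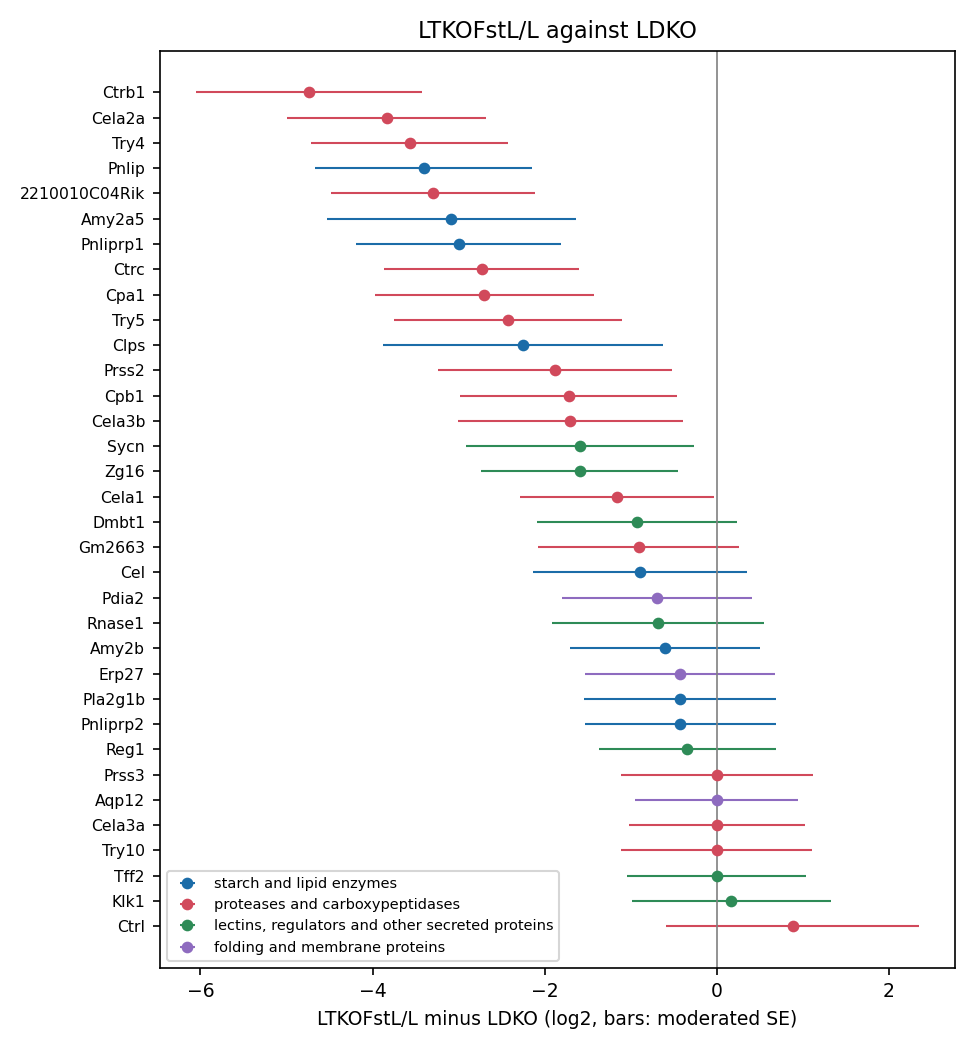
LTKOFstL/L minus LDKO log2 difference (x axis) with its moderated standard error from limma (bars) for each of the 34 genes (rows, coloured by role). Ctrb1 is lowest at −4.74 and Ctrl highest at 0.88, and 0 of the 34 passed the threshold after adjustment over all genes.

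Genes outside the 34 with known acinar roles were read from a fixed list, of which 26 were in the table and 25 were detected. The list was fixed with earlier results of these data known. Both Control libraries were above all others for 18 of the 25, and for 6.69% of the 17227 genes tested. The Control 1 minus Control 2 difference exceeded 3 for 11 of the 25. Over all genes tested the quartiles of this difference were −0.26 and 0.24, and the share over 3 was not counted. Over the 14 with a recovered level, the summed scaled value was 0 and 0 in LTKOFstL/L, 10.9 and 3.53 in LDKO, and 18053 and 1024 in Control. Gp2, the major glycoprotein of the zymogen granule membrane, had log2 levels of 0 and 0 in LTKOFstL/L, 2.44 and 0 in LDKO, and 12.34 and 8.35 in Control. Spink1, a trypsin inhibitor made beside the zymogens, had log2 levels of 0 in every mutant library, and 10.67 and 6.10 in Control. The Control difference in the list was largest for Serpini2 at 5.69 and lowest for Aqp8 at −1.46.

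Acinar transcription factors were read from a list of their own. Ptf1a, which defines the acinar lineage, was above the floor in Control 1 alone, at a log2 level of 2.58. Rbpjl, its acinar-restricted partner, had log2 levels of 0 and 1.66 in LTKOFstL/L, 0 and 0 in LDKO, and 6.97 and 3.93 in Control. Bhlha15, which supports the secretory state of acinar cells, had centred log2 values of −1.42 and 0.38 in LTKOFstL/L, −0.30 and −0.10 in LDKO, and 3.88 and 0.10 in Control. Nr5a2 did not follow this order, at −0.41 and −0.00 in LTKOFstL/L, −0.64 and 0.33 in LDKO, and 0.00 and 0.46 in Control. The median Control 1 minus Control 2 difference over all 12 factors was 0.37. The 33 genes of the general secretory pathway, which every cell uses, had a median of 0.05 (range −0.57 to 0.49).

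Markers of other pancreatic and nearby tissues were read in the same way. Of 18 islet endocrine genes 12 were detected, with a median Control 1 minus Control 2 difference of 0.13 (range −1.02 to 2.67), and Gcg, Sst, Ppy, Iapp, Pdx1 and G6pc2 were at the floor in every library. Ins2 had log2 levels of 1.08 and 0 in LTKOFstL/L, 0 and 0 in LDKO, and 3.67 and 1.02 in Control, and Ins1 was above the floor in Control 1 alone at 2.67. The summed scaled value of the 6 islet genes with a recovered level was 6.35 and 16.9 in LTKOFstL/L, 1.81 and 0 in LDKO, and 21.2 and 8.11 in Control. Duct markers (13 of 14 detected, Cftr at the floor) had a median Control 1 minus Control 2 difference of 0.06. Both Control libraries were above all 4 others for 7 of the 13 duct markers, for 1 of the 12 islet genes and for 6.69% of all genes tested. Salivary gland markers (9 of 15 detected) had a median of 0.00, with Klk1b4 at 4.67, and Smr3a, Prol1, Prb1, Dcpp2 and Dcpp3 were at the floor in every library. Stomach and intestine markers, of which 10 of 19 were detected, had a median of −0.84. Liver markers had a median of −0.84 and were lower in Control 1 than in Control 2 for all 14, adipocyte markers a median of −0.10, lymphoid markers 0.34 and mesothelial markers 0.04. The part of these other cell types in the acinar values was not tested, and neither was whether the acinar RNA was made in muscle or came from pancreas tissue in the samples.

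**Figure D5:**
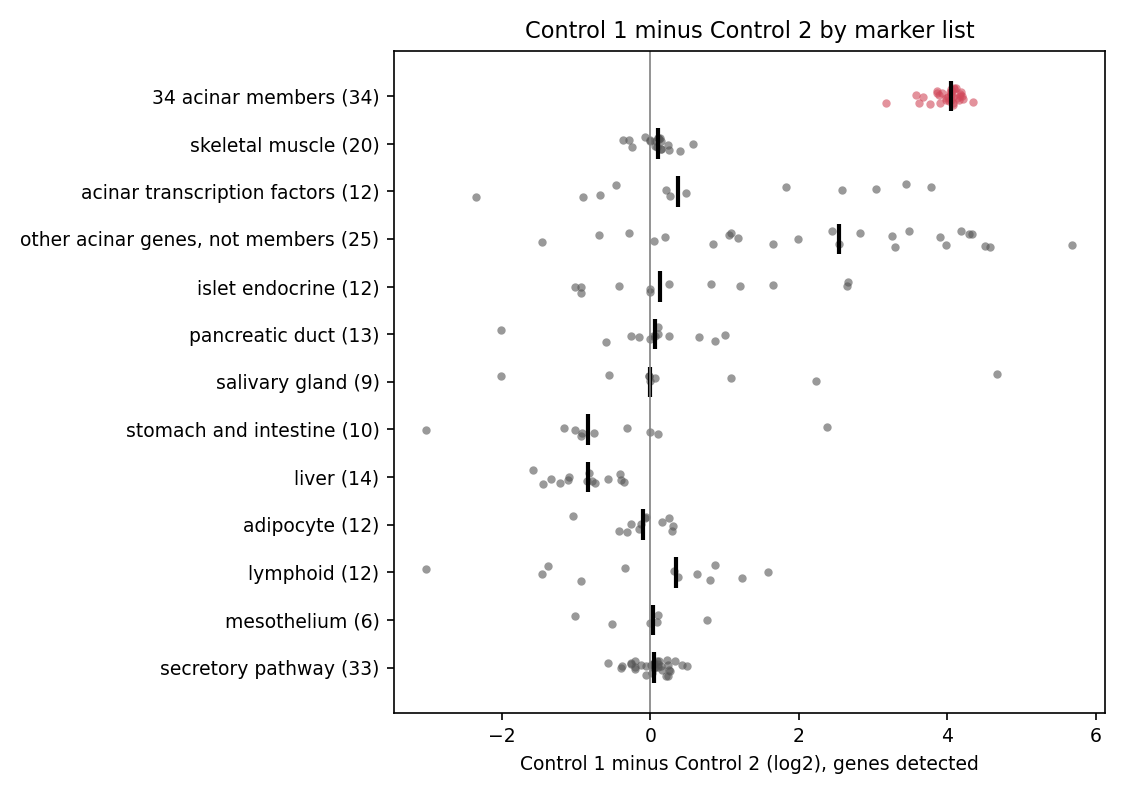
Control 1 minus Control 2 log2 difference (x axis) for the genes of each fixed marker list (rows, each gene a point, median marked). The 34 acinar genes sit around 4.05, other acinar genes have a median of 2.54, and the muscle markers have a median of 0.10.

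The plot of marker lists shows that muscle markers did not share the Control difference, with a range of −0.37 to 0.57 over 20 genes. Among 15697 genes outside the 34 with a log2 level of at least 4 in both Control libraries, the 10 whose 6 values lay nearest the median profile of the 34 were found by Euclidean distance over the 6 centred log2 values. They included Gp2 (1.23), Spink1 (3.01), Gm10327 (4.96), Tmed6 (5.56), Gal (8.96), Derl3 (9.74), Casp9 (10.4), Gm2451 (10.4) and Slc39a5 (10.7). The 34 genes themselves lay at 0.749 to 6.60 from that profile. Gm10327 was high in both Control libraries without the common ratio, at centred log2 values of −0.04 and −0.21 in LTKOFstL/L, −0.08 and 0.04 in LDKO, and 7.38 and 7.86 in Control. Over the whole table, 9 genes outside the 34 matched both their range of Control 1 minus Control 2 differences and their range of margins above the mutant libraries. Of these 9, 7 were on the list of other acinar genes (among them Cckar, 1810009J06Rik, Gm5771, Prss1, Gp2 and Tmed6), and the others were Gm5409 and Klk1b5, found after values were seen. Some of the 9 share exonic sequence with the 34. Of the 50-base words of Try10, 22.8% were in Gm5409, and of those of Klk1, 15.9% were in Klk1b5. For Gm2663, 83.5% were in 1810009J06Rik. Reads may be divided within these pairs, so their like profiles are not separate observations.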

How the data were processed

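Skeletal muscle RNA was extracted with TRI Reagent and made into libraries with a SMARTer mRNA kit, per the labels' protocols, and the genome build was mm10 according to the submitters' processing notes. How reads were aligned, counted and normalized is not given in the sources. The authors deposited log2 expression for all genes and lists of differential genes with log2 differences and corrected p-values, which per the file headers came from an AC test. Judged from the values, the log2 values are library-scaled reads with a floor at 1, centred per gene on the median of 6 libraries. Levels before centring were recovered from ties at the floor (24 of the 34 genes) or from a match to 1 or 2 reads (6), within a tolerance of 0.0001 on the log2 scale.

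The 34 genes, the marker lists and the tests were chosen with earlier results of these data known. LTKOFstL/L against LDKO was fitted with limma 3.58.1 in R 4.3.3 on all 6 libraries with 1 mean per genotype (3 residual degrees of freedom), for 17227 genes with a log2 level of at least 4 in at least 2 libraries. Robust empirical Bayes priors were estimated in 3 strata of the lowest library's level (bounds 4 and 8), and two-sided p-values were adjusted by the Benjamini-Hochberg method (threshold 0.05). On simulated data for this comparison (17227 genes), the fit called 62 of 100 genes changed by log2 2, 70 of 100 changed by log2 3 and 1 unchanged gene. These counts are not split by stratum. Of the 34 genes, 33 lie in the lowest stratum. The median SE there was 0.75, against 0.32 and 0.17 in the other strata. How the fit performs on genes such as these 33 was not tested. Gene positions came from GENCODE M21, in which 34 of 34 IDs matched. Other steps used Python 3.11.15. Full values were given for the 2 genes of each role highest in Control 1 and for the smallest and largest Control difference. Further genes were chosen after values were seen. Depth is unknown, and with 2 libraries a group the spread is poorly known. Alternatives were other filters, priors, centring and left-out libraries. A result on the nearest profiles and on the list of other acinar genes is not reported here.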

Additional observations from a re-analysis of the deposited data

How the results depend on the processing

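The median Control 1 minus Control 2 difference was 3.97 with libraries re-centred on muscle markers and between 4.05 and 4.07 in the other 3 alternatives. For LTKOFstL/L against LDKO, 444 genes passed (204 higher, 240 lower). The count was 197 with no level filter, 52 with a single prior, 297 with only the groups compared, 254 (104 higher, 150 lower) with re-centred libraries and 494 at a log2 level of at least 8. Leaving out 1 library gave 45 to 714 genes, with 48 without LTKOFstL/L 1, 45 without LTKOFstL/L 2, 399 without LDKO 1, 714 without LDKO 2 and 297 without either Control. The cause was not tested. The fits without Control 1 or without Control 2 use the same spread as the fit on only the groups compared, so these are not separate checks. Among the acinar genes 0 passed with no level filter, a single prior, only the groups compared, re-centred libraries or a log2 level of at least 8. In each of these 34 were tested, except at a log2 level of at least 8, where 24 were.

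With the replicate number as a block, 293 genes and 2 of the 34 passed, Ctrb1 (adjusted p = 0.0343) and Amy2a5 (0.0406) in limma, both lower. Deviations of same-numbered libraries correlated at −0.19 for LTKOFstL/L with LDKO, −0.06 for LTKOFstL/L with Control and 0.20 for LDKO with Control. These correlations are weak and of mixed sign, and whether same-numbered libraries were handled together was not tested. A crossed pairing, chosen after seeing the data, gave 278 genes and 0 of the 34. With left-out libraries the median ran from −11.88 to −7.90 for LDKO minus Control, −14.14 to −10.06 for LTKOFstL/L minus Control and −2.11 to −0.51 for LTKOFstL/L minus LDKO. Restricting to genes above the floor in each library left 13 genes for LDKO minus Control (median −10.48), 1 for LTKOFstL/L minus Control (−9.69) and none for LTKOFstL/L minus LDKO. Unknown depth and values at the floor limit every comparison among the mutant libraries.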
